A study of Mus musculus with 8 samples.

Results

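RING1B I53A embryonic stem cells, in which a substituted RING1B protein is present, were compared with RING1B knockout (KO) cells, in which the protein is absent. The comparison rests on 4 of the 8 Hi-C libraries of the series, chosen by the genotype and replicate number in the labels: I53A 1, I53A 2, KO 1 and KO 2. The other 4 libraries came from the parental wild-type line (WT) and entered the fits only to estimate the spread between libraries. Hi-C joins DNA ends that lie close together in fixed nuclei and counts them as read pairs, so the counts show which chromosomes and distances are brought together.

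The parental line was E14tg2A, a male mouse embryonic stem cell line of strain 129/Ola with the genotype Ring1B+/+. The I53A line (Ring1B I53A/I53A) and the KO line (Ring1B -/-) were derived from it, and all 3 genotypes were grown without feeder cells on gelatin in medium with serum and LIF. Each mutant genotype was a single derivative line, so a difference between the lines need not come from Ring1B. The labels give no other altered gene, and RING1A, a paralogue with the same activity, is not named as deleted. Nothing in the labels says whether libraries of a line came from separate cultures, so every p-value measures only the spread between these libraries. The series concerns the part of PRC1 in nuclear organisation, and this comparison asks how contacts differ between cells with the substituted protein and cells without it.

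RING1B is the catalytic E3 ligase of the Polycomb complex PRC1, which places ubiquitin on histone H2A at repressed developmental genes. Its RING domain binds the E2 enzyme that carries ubiquitin, and I53A is a substitution at that surface. The substitution impairs ligase activity while the protein can still join the complex. Ubiquitination was not measured in these libraries. PRC1 also compacts nucleosome arrays and brings its target genes together in stem cell nuclei, which has been studied as a function separate from ubiquitination.

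The substituted residue is shown to place the difference between the protein forms. RING1B is encoded by Rnf2 (ENSMUSG00000026484.7), and residue 53 of its 336 lies in exon 3 of 7, in coding sequence. The stretch is chr1:153324076-153324108 in NCBIM37 (mm9), minus strand, printed 5′ to 3′ with the codon of residue 53 (153324091 to 153324093) in capitals. It is the reference sequence and was not read from these lines.
Rnf2 codon 53: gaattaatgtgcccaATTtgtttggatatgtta

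Unique pairs, after removal of duplicates, numbered 226877778 in I53A 1, 224243196 in I53A 2, 268942815 in KO 1 and 262828203 in KO 2, against 121369690 to 164477401 in WT. Intrachromosomal pairs under 1 kb, which are commonly uncut or self-joined fragments, made up 34.5% of intrachromosomal pairs in I53A 1, 14.05% in I53A 2, 24.6% in KO 1 and 32.9% in KO 2, and were left out unless stated. The share of unique pairs typed UR or RU (in pairtools' naming rescued pairs, in which a read crossed a ligation junction) was 30.6% in I53A 2 and 44.9% to 46.3% in the other I53A library and both KO libraries. Chromosome 11 held 5.85% and 5.92% of read ends in I53A and 8.56% and 8.62% in KO, with 5.71% to 5.97% in WT, so the KO libraries carried more chromosome 11 sequence, and its part in the results is shown by repeating them without that chromosome.

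Contacts between chromosomes made up a smaller share in I53A than in KO, with intrachromosomal pairs under 1 kb left out. The share was taken from library counts, and the source of its difference between the lines was not tested. The ratio of interchromosomal to intrachromosomal pairs (trans/cis ratio) of the whole library was 0.224 in I53A 1, 0.229 in I53A 2, 0.278 in KO 1 and 0.293 in KO 2. With this 1 kb limit WT libraries lay between the mutant lines, at 0.242 to 0.261. I53A thus lay below all 4 and KO above all 4. The ratio was 1.26 times as high in KO (0.285 ± 0.0103, SD, n = 2) as in I53A (0.226 ± 0.00324, SD, n = 2), a log2 difference, I53A minus KO, of -0.33 against a pooled SD of 0.040. Taken by replicate number, the difference was -0.31 for the libraries numbered 1 and -0.36 for those numbered 2. An exact permutation test of 2 libraries against 2, two-sided, gave p = 0.333, the smallest it allows. As a share of interchromosomal plus intrachromosomal pairs, interchromosomal pairs were 18.3% and 18.6% in I53A and 21.8% and 22.6% in KO.

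The separation did not depend on where the lower distance limit was set between 1 kb and 10 Mb. With intrachromosomal pairs of 10 kb or more the ratio was 0.262 and 0.254 in I53A and 0.326 in both KO libraries. With those of 10 Mb or more it was 1.47 and 1.29 in I53A and 1.74 and 1.60 in KO. I53A lay below KO at each of these limits, with log2 differences from -0.28 to -0.35. The place of the lines relative to WT did depend on the limit. I53A 1 lay within the WT range at 100 kb or more (0.362, WT 0.359 to 0.402). It did so again at 1 Mb or more (0.742, WT 0.725 to 0.796). KO 2 lay within the WT range at 10 Mb or more (1.60, WT 1.54 to 1.65). With all intrachromosomal pairs, short ones included, the ratio was 0.147 and 0.197 in I53A and 0.210 and 0.196 in KO, and the lines overlapped (exact permutation p = 0.667). Both lines then lay above the WT range of 0.120 to 0.144. Without chromosome 11 the ratio was an estimate, because distances are given for whole libraries only. The remaining intrachromosomal pairs were scaled by the library's share of pairs at 1 kb or more. The estimate was 0.208 and 0.213 in I53A and 0.251 and 0.263 in KO, a log2 difference of -0.29 in place of -0.33.

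**Figure D1:**
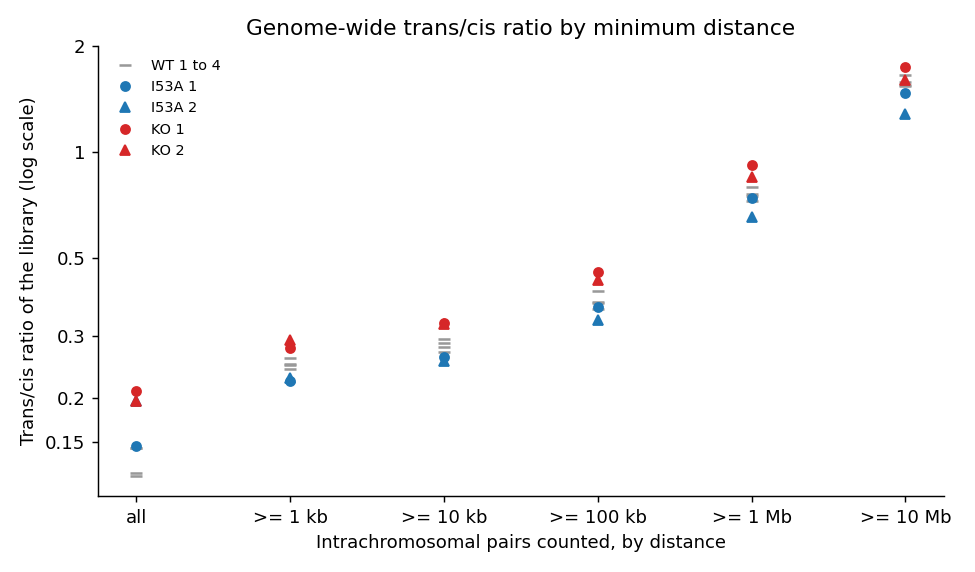
Trans/cis ratio of each library (log scale) against the minimum distance of the intrachromosomal pairs counted; circles are replicate 1, triangles replicate 2, grey bars the 4 WT libraries. I53A (blue) lies below KO (red) from 1 kb upwards, and the lines overlap only where all pairs are counted.

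Every autosome followed the library-wide difference. In each autosome's ratio, which counts an interchromosomal pair at both of its ends, cis pairs were scaled by the library's share of pairs at 1 kb or more, because distances are given for whole libraries only. By edgeR's quasi-likelihood test over 19 autosomes, 19 (100%) were lower in I53A, with log2 differences of -0.36 to -0.28, a median of -0.34 and Benjamini-Hochberg adjusted p of 5.99e-10 to 1.98e-07. The 19 ratios of a library share a library-wide factor, so they are not separate evidence and these p-values are too small. On all 19 autosomes the I53A libraries also lay below both KO libraries. Without chromosome 11, 18 of 18 (100%) were lower, with a median difference of -0.29.

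The difference was largest on chromosomes 16 and 1 and smallest on chromosomes 11 and 3. On chromosome 16, one of the shorter autosomes, the ratio was 0.477 in I53A 1, 0.496 in I53A 2, 0.603 in KO 1 and 0.646 in KO 2, 1.28 times as high in KO. Chromosome 1, the longest, had 0.388 and 0.387 in I53A and 0.488 and 0.507 in KO, also 1.28 times. On chromosome 11, which is gene-rich and over-represented in KO, the values were 0.477 and 0.488 in I53A and 0.569 and 0.606 in KO, 1.22 times. Chromosome 3 had 0.413 and 0.417 in I53A and 0.505 and 0.527 in KO, 1.24 times. On all 4 of these chromosomes the lines were apart, and WT libraries lay between them. With cis counts as deposited, short pairs included, 0 of 19 autosomes (0%) passed by edgeR, with 0 at an unadjusted p under 0.05, and the libraries of 9 (47.4%) did not overlap.

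The order of the autosomes was shared by the lines. Chromosome 1 had the lowest ratio and chromosome 19, the shortest, the highest in all 8 libraries. Chromosome 19 had 0.541 and 0.570 in I53A and 0.677 and 0.734 in KO. Across the 19 autosomes, which are not independent replicates, the log2 ratio fell with log2 chromosome length at r = -0.90 in I53A 1, -0.93 in I53A 2, -0.92 in KO 1 and -0.93 in KO 2. The I53A minus KO difference itself had r = 0.14 with log2 length, and r = 0.41 with protein-coding genes per Mb, which was 0.11 without chromosome 11.

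**Figure D2:**
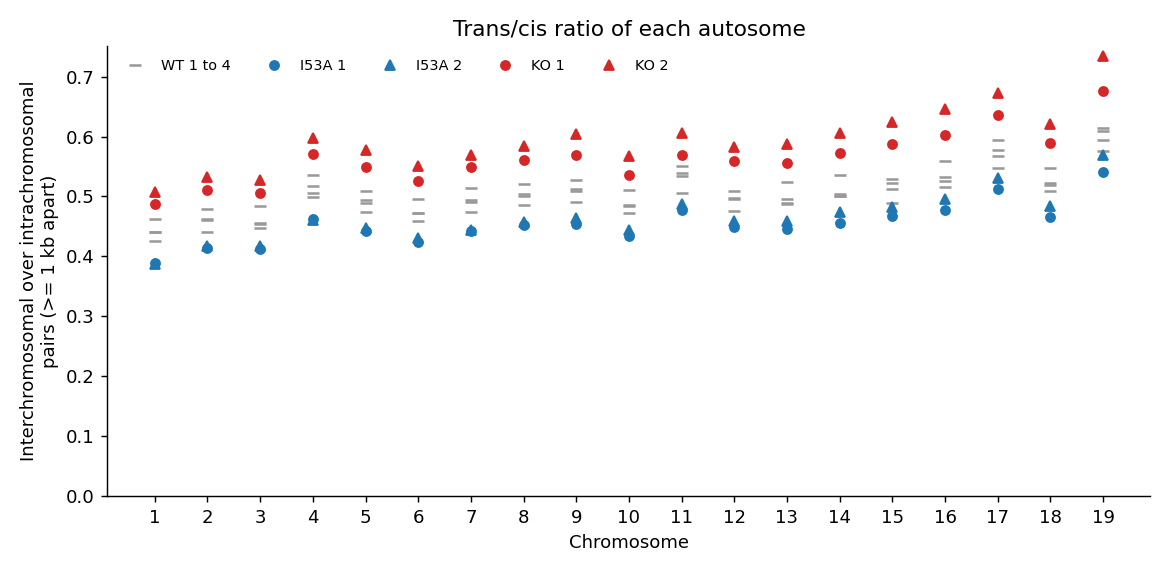
Trans/cis ratio of each autosome in each library, with cis pairs scaled to those 1 kb or more apart; circles are replicate 1, triangles replicate 2, grey bars the 4 WT libraries. I53A (blue) lies below WT and KO (red) above WT on every autosome.

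When the median autosome of each library was subtracted on the log2 scale, which removes the library-wide factor, chromosome 11 was higher in I53A. Its relative ratio was 0.073 in I53A 1, 0.086 in I53A 2, 0.019 in KO 1 and 0.045 in KO 2, with 0.054 to 0.098 in WT. The KO libraries were the low ones, below all 4 WT libraries, and the I53A libraries lay within the WT range. The difference was 0.048 ± 0.013 (SE; edgeR adjusted p = 0.0180), and 0.055 and 0.041 by replicate number. It was the single call among 19 (5.26% called higher in I53A, 0% lower). The call was lost, with adjusted p of 0.063, 0.234 and 0.197, when I53A 1, I53A 2 or KO 1 was left out, and limma gave 0.142. Over-representation of chromosome 11 in KO moves with this result, and its part was not tested.

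The libraries of 5 of 19 autosomes (26.3%) did not overlap in the relative ratio. Chromosome 3 was next to chromosome 11, with -0.134 and -0.139 in I53A and -0.152 and -0.157 in KO, a difference of 0.018 ± 0.011 (SE; edgeR adjusted p = 0.409). At the other end, chromosome 16 differed by -0.027 ± 0.016 (SE; edgeR adjusted p = 0.409), with 0.075 and 0.111 in I53A and 0.103 and 0.136 in KO, which overlapped. Chromosome 1 had -0.222 and -0.246 in I53A and -0.203 and -0.214 in KO, and its difference of -0.026 ± 0.011 did not pass (edgeR adjusted p = 0.185). None of the differences other than that of chromosome 11 exceeded 0.027 in size. With chromosome 11 left out of every count, 0 of 18 autosomes (0%) passed by edgeR, with 0 at an unadjusted p under 0.05.

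**Figure D3:**
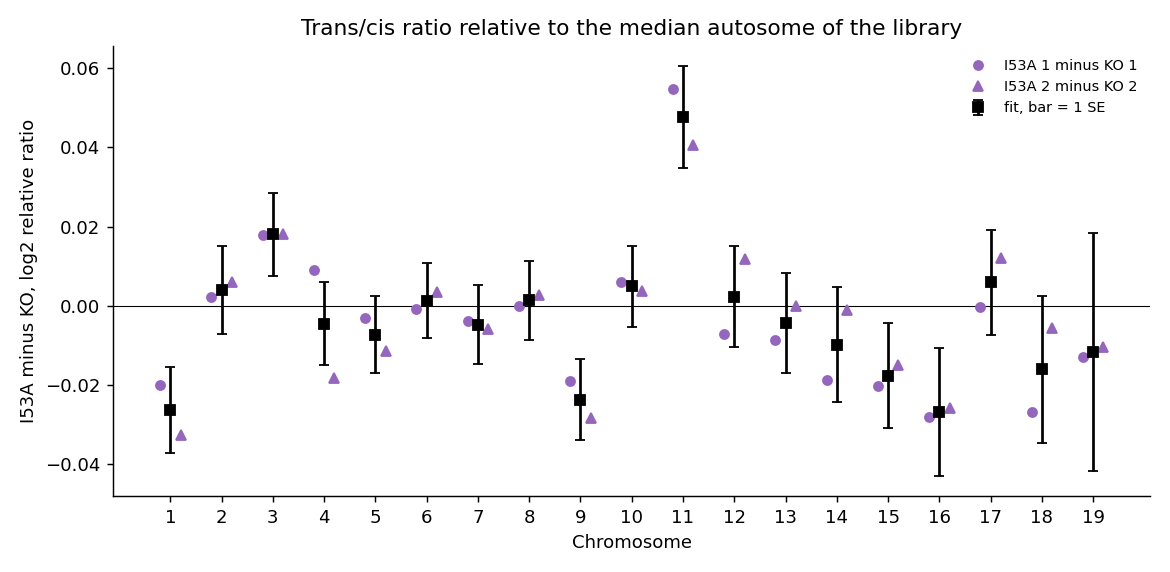
I53A minus KO difference in the log2 trans/cis ratio of each autosome relative to the median autosome of the library; squares are the edgeR fit with 1 SE, circles and triangles the differences between libraries of the same number. Chromosome 11 is highest at 0.048, and chromosomes 16 and 1 are lowest at -0.027 and -0.026.

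Which chromosomes met each other was then compared after each chromosome's total of interchromosomal pairs had been taken into account, so that extra copies do not enter. Partner preference is the log2 of the observed over the expected count of a pair of chromosomes, over 190 pairs of chromosomes 1 to 19 and X. The lines shared most of their preferences. Over the 190 pairs, which share chromosomes and are not independent, I53A and KO means correlated at r = 0.93, against 0.986 for I53A 1 with I53A 2 and 0.993 for KO 1 with KO 2. The SD of preference over pairs was 0.0426 and 0.0478 in I53A and 0.0468 and 0.0533 in KO, and the lines overlapped. Without chromosome 11 it was 0.0397 and 0.0445 in I53A and 0.0446 and 0.0509 in KO, which did not overlap (exact permutation p = 0.333, the smallest possible).

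No pair of chromosomes passed the threshold in the fit of all 8 libraries. By edgeR's quasi-likelihood test 0 of 190 pairs (0%) were called, with 34 at an unadjusted p under 0.05 and a lowest adjusted p of 0.0537. Libraries of I53A and KO did not overlap for 116 of 190 pairs (61.1%), 61 with I53A above KO (32.1%) and 55 with I53A below KO (28.9%). The median size of the difference was 0.0079. The number of calls depended on the fit: edgeR on the I53A and KO libraries alone, which leaves out the spread among WT libraries, called 36 pairs (20 higher in I53A, 10.5%, and 16 lower, 8.42%). DESeq2 on all 8 libraries called 13 pairs (9 higher, 4.74%, and 4 lower, 2.11%), all of them among those 36, while limma called 0 with 32 at an unadjusted p under 0.05.

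Pairs described next were chosen after their values were seen, as the largest differences among pairs whose lines did not overlap. The lowest in I53A relative to KO joined chromosomes 12, 16, 18 and 19. Chromosomes 12 and 18 had a preference of 0.045 in I53A 1, 0.049 in I53A 2, 0.130 in KO 1 and 0.152 in KO 2. I53A lay below and KO partly within the WT range of 0.062 to 0.138, and the difference was -0.094 ± 0.022 (SE; edgeR adjusted p = 0.0537). Chromosomes 12 and 19 had 0.047 and 0.040 in I53A and 0.117 and 0.131 in KO, a difference of -0.080 ± 0.037 (SE; edgeR adjusted p = 0.292). WT libraries ranged from 0.059 to 0.203 for that pair, wider than the distance between the mutant lines. Chromosomes 18 and 19 had 0.119 and 0.126 in I53A and 0.168 and 0.211 in KO, with a difference of -0.067 ± 0.023 (SE; edgeR adjusted p = 0.175). The pairs 16 with 19 and 16 with 18 followed, at -0.050 and -0.048.

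Mouse chromosomes 12, 15, 16, 18 and 19 carry clusters of ribosomal RNA genes in many strains, and such chromosomes meet at nucleoli. Of the 10 pairs among these 5 chromosomes, 7 had both I53A libraries below both KO libraries and 1 had them above, beside 28.9% below and 32.1% above over all pairs. The 10 include every pair named in the paragraph above, chosen after their values were seen, so these counts are not separate evidence. The median preference of the 10 was 0.057 and 0.065 in I53A and 0.109 and 0.119 in KO, with 0.066 to 0.143 in WT. Their median difference was -0.039, beside 0.00025 over all 190 pairs, and 0 of the 10 passed by edgeR. Among the pairs of chromosome 15, I53A was below KO with 16 (-0.029), above KO with 18 (0.022), and overlapped with KO for 12 and 19.

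The pairs with the largest rises in I53A, among those whose lines did not overlap, involved chromosome 8 or 19. Over its 19 partners, chromosome 8 had 7 with I53A above KO and 8 with I53A below. Chromosomes 8 and 15 had 0.096 in I53A 1, 0.0995 in I53A 2, 0.047 in KO 1 and 0.052 in KO 2, a difference of 0.049 ± 0.010 (SE; edgeR adjusted p = 0.0537). I53A was above, and KO within, the WT range of 0.041 to 0.080. Chromosomes 8 and 18 had 0.040 and 0.036 in I53A and -0.0024 and -0.0035 in KO, a difference of 0.041 ± 0.0090 (SE; edgeR adjusted p = 0.0537). Again I53A alone lay outside the WT range, of -0.014 to 0.0087. Of the 19 partners of chromosome 19, 9 had I53A above KO and 6 below. The difference was 0.047 with chromosome 5, 0.043 with chromosome 2 and 0.035 with chromosome 4, but -0.023 with chromosome 7. Expected counts match each chromosome's total, so rises with some of its partners and falls with others are tied and not separate results. TMM scaling, which keeps chromosome totals in, turned 5 with 19 to -0.012 and 4 with 19 to -0.0096. For 19 with 5 the preference was -0.032 and -0.037 in I53A and -0.073 and -0.089 in KO, which lay below the WT range of -0.055 to -0.018. Chromosome 19 had the largest median size of difference over its 19 partners, 0.026, followed by chromosome 16 with 0.022, whereas chromosome 2 had 0.0046.

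Chromosome 11, over-represented in KO, had 7 partners with I53A above KO and 6 with I53A below among its 19, a share near the 61.1% of all pairs that did not overlap. Its largest difference was with chromosome 18, where the preference was -0.024 and -0.028 in I53A and -0.052 and -0.059 in KO, a difference of 0.030 ± 0.0062 (SE; edgeR adjusted p = 0.0537). Its sign turned with an offset from the product of totals (-0.012) and with TMM in place of the offset (-0.55). When chromosome 11 was left out and expected counts were computed anew, 0 of 171 pairs (0%) passed by edgeR (27 at an unadjusted p under 0.05), and 12 with 18 differed by -0.084, 12 with 19 by -0.078, 8 with 15 by 0.045 and 8 with 18 by 0.045. These values lay close to those with chromosome 11 included.

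With the chromosomes split into the 10 longest and the 10 shortest, the median preference of long with short chromosomes was -0.0082 and -0.0080 in I53A and -0.0118 and -0.0168 in KO. I53A was nearer to 0 and the lines did not overlap (exact permutation p = 0.333, the smallest possible). Of the 100 such pairs, 41 had I53A above KO and 19 below, beside 32.1% above and 28.9% below over all pairs. These pairs include 5 with 19, 2 with 19, 4 with 19, 8 with 15 and 8 with 18, described above. Chromosomes 12, 15, 16, 18 and 19 are all among the 10 shortest. Expected counts match each chromosome's total, so falls among short chromosomes and rises with long ones are tied and not separate results. Of the 45 pairs of long chromosomes, 5 had I53A above and 20 below. Their median preference overlapped between the lines, at 0.0072 and 0.0095 in I53A and 0.0083 and 0.0080 in KO. Without chromosome 11 it did not overlap, at 0.0052 and 0.0065 in I53A and 0.0094 and 0.0082 in KO (exact permutation p = 0.333).

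**Figure D4:**
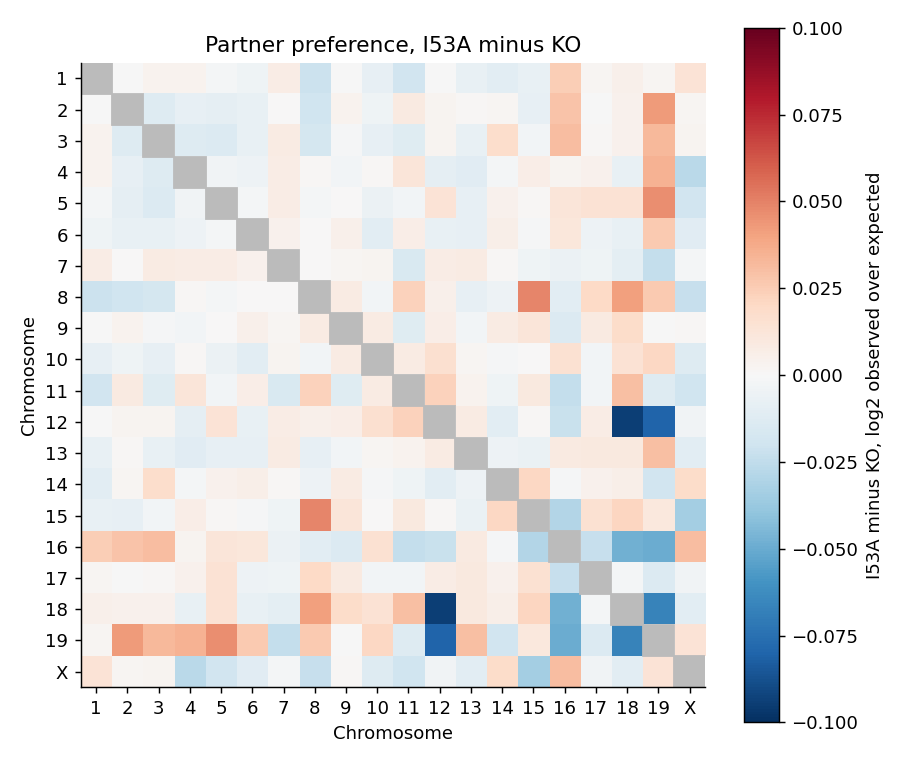
I53A minus KO difference in partner preference (log2 observed over expected) for each pair of chromosomes 1 to 19 and X; red is higher in I53A, blue is lower, and the diagonal is empty. The darkest cells are 12 with 18 (-0.094) and 12 with 19 (-0.080) in blue and 8 with 15 (0.049) and 5 with 19 (0.047) in red.

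In the fit of all 8 libraries, no distance within chromosomes passed the threshold for a difference in the decay of contacts. The values are given as a description. P(s) is the number of pairs per base at distance s, and its local slope is the change of log10 P(s) over the change of log10 s between neighbouring distance bins, so that a more negative value is a steeper decay. Strand orientations were summed, and at 1 to 1.78 kb each orientation held 23.2% to 26.2% of pairs in the mutant libraries. Of the 21 borders between bins from 1 kb, limma called 0 (0%), with 2 at an unadjusted p under 0.05 and a lowest adjusted p of 0.233. The libraries of I53A and KO did not overlap at 9 borders (42.9%), 5 with I53A above, that is shallower (23.8%), and 4 with I53A below (19%). Apart from 10 kb, the borders described below are these 9, chosen after their values were seen. Slopes at neighbouring borders share a bin, so they are not separate results. Distance counts were not split by chromosome, so the slopes could not be repeated without chromosome 11.

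Up to 100 kb the slopes overlapped between the lines and differed between replicate numbers. At 10 kb the slope was -0.891 in I53A 1 and -0.860 in KO 1, against -0.728 in I53A 2 and -0.700 in KO 2. From 316 kb to 1 Mb, around the scale of topological domains, the KO values were the steeper ones. At 562 kb the slope was -1.31 and -1.24 in I53A and -1.40 and -1.34 in KO, a difference of 0.096 ± 0.060 (SE; limma adjusted p = 0.473). The differences at 316 kb and 1 Mb were 0.080 and 0.055. The lines were apart at all 3 of these borders, which is how they were chosen. Averaged over all borders from 100 kb to 1 Mb, the slopes overlapped between the lines (exact permutation p = 0.667). Averages over 1 to 10 Mb did not overlap, at -1.23 and -1.21 in I53A and -1.16 in both KO libraries.

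Between 1.78 and 10 Mb the KO values were the shallower ones. At 3.16 Mb the slope was -1.32 in I53A 1, -1.34 in I53A 2, -1.20 in KO 1 and -1.22 in KO 2, a difference of -0.12 ± 0.056 (SE; limma adjusted p = 0.418). KO lay above the WT range of -1.39 to -1.25, and I53A within it. At 10 Mb it was -0.706 and -0.660 in I53A and -0.598 and -0.562 in KO, a difference of -0.10 ± 0.058 (SE; limma adjusted p = 0.418), again with KO above every WT library. At 1.78 and 5.62 Mb the differences were -0.061 and -0.098. The steepest decay between 100 kb and 10 Mb lay at 1.78 Mb in both I53A libraries and at 1.00 Mb in both KO libraries, while 3 WT libraries had it at 1.78 Mb and WT 4 at 1.00 Mb.

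At 31.6 and 56.2 Mb the I53A values were the shallower ones. The slope at 31.6 Mb was -0.982 in I53A 1, -1.09 in I53A 2, -1.22 in KO 1 and -1.25 in KO 2. I53A lay above the WT range of -1.30 to -1.10 and KO within it, with a difference of 0.20 ± 0.067 (SE; limma adjusted p = 0.233). At 56.2 Mb it was -2.15 and -2.35 in I53A and -2.46 in both KO libraries, a difference of 0.21 ± 0.083 (SE; limma adjusted p = 0.286). By replicate number the difference at 56.2 Mb was 0.31 for the libraries numbered 1 and 0.11 for those numbered 2, and without I53A 2 it passed (limma adjusted p = 0.0474). Pairs 56.2 to 100 Mb apart took 2.32% and 2.41% of the pairs counted in I53A and 1.96% and 2.22% in KO. The I53A shares were above those of KO, and also above the WT range of 1.77% to 2.09%.

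**Figure D5:**
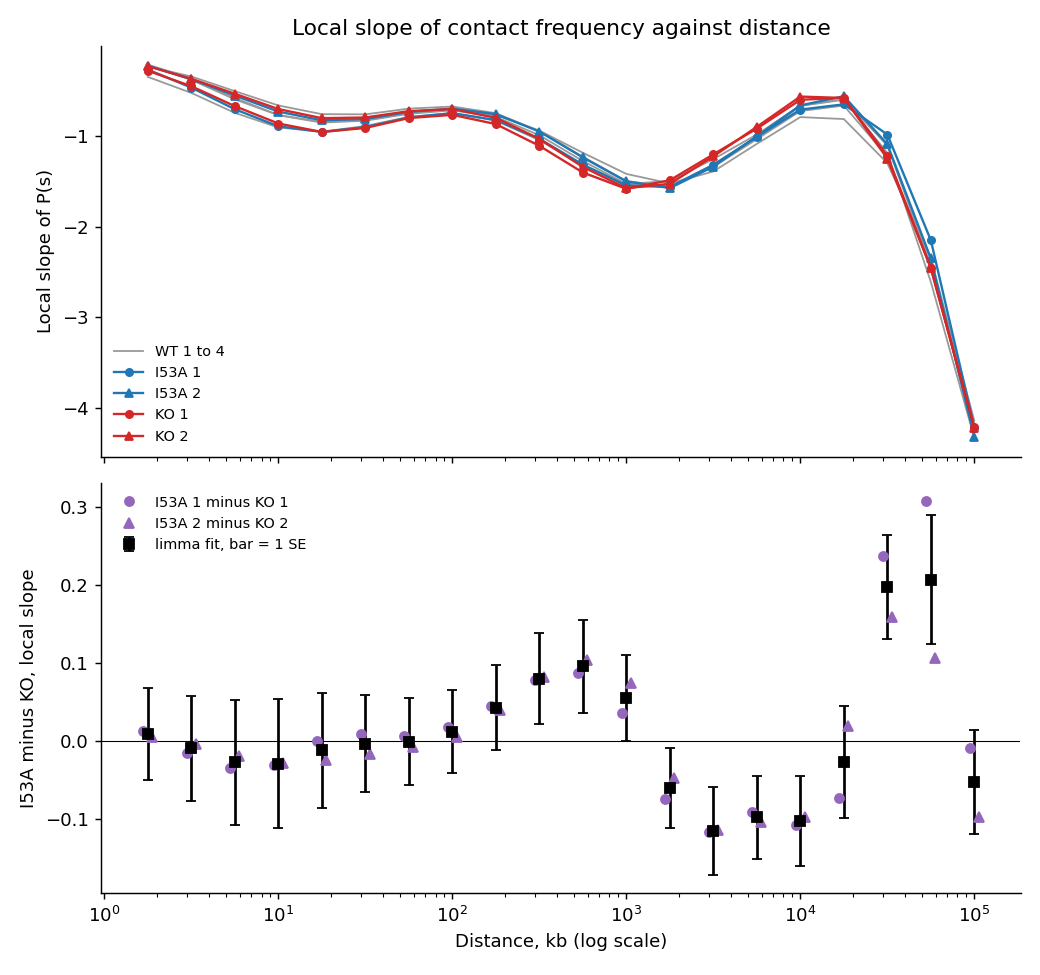
Top, local slope of P(s) in each library against distance (log scale, kb) for the borders up to 100 Mb; bottom, the I53A minus KO difference by limma with 1 SE (squares) and between libraries of the same number (circles and triangles). The difference is near 0 up to 100 kb, positive at 316 kb to 1 Mb, negative at 1.78 to 10 Mb and positive at 31.6 and 56.2 Mb.

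The libraries with a high rescued share, which leave I53A 1 against both KO libraries and 2 of the WT libraries, were also fitted alone, a split chosen after seeing the data. I53A 1 is a lone library there and is assumed to vary like the KO and WT libraries, which alone give the spread. The ratios of all 19 autosomes were lower in I53A 1 than in KO, with a median log2 difference of -0.35. These ratios share the library-wide factor of a lone library, so they are not separate evidence. In that set chromosome 11 differed by 0.041 in the relative ratio (edgeR adjusted p = 0.073) and 3 of 190 chromosome pairs passed (1 higher in I53A, 0.526%, and 2 lower, 1.05%), with 12 with 18 at -0.096, 12 with 19 at -0.076 and 8 with 18 at 0.043. No border of the local slope passed by limma there, with 4 at an unadjusted p under 0.05.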

How the data were processed

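Per the labels' protocols, cells were fixed with 1% formaldehyde for 10 min, digested with DpnII and joined inside nuclei; libraries were test-sequenced on a NextSeq and selected ones sequenced on a HiSeq. Whether the counts pool these runs, and the aligner, are not given in the sources used here. The authors deposited raw read-pair counts per library (409 statistics), with the build mm9 per the submitters' processing notes. From them were computed trans/cis ratios, counts expected from chromosome totals by iterative proportional fitting, and local slopes over 22 distance bins. edgeR 4.0.16 (quasi-likelihood, R 4.3.3) and limma 3.58.1 fitted all 8 libraries with a mean per genotype, and DESeq2 1.42.0 was an alternative. Calls needed a Benjamini-Hochberg adjusted p under 0.05. The edgeR dispersion was held at 0.0002 or more, because estimates under 0.0001 switch edgeR to an approximate formula that fails at counts this large. The main fit of each measure was tested on simulated data with planted differences, and the alternative fits were not. Members, lists and tests were chosen with earlier results of these data known. The rule for named features took chromosome 11, the autosomes and borders with the 2 largest and 2 smallest differences, and pairs past the threshold. As no pair passed, the pairs in the text were chosen after their values were seen. So were the further borders in the text, as those where the lines did not overlap, along with 10 kb, where they overlapped. Alternatives left out libraries, chromosome 11 or WT, and changed the offset, scaling, distance limit and tool.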

Additional observations from a re-analysis of the deposited data

Results flagged for a closer look

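At the 1.78 kb border WT 4 had a local slope of -0.345 and the other WT libraries -0.229 to -0.209, a gap of 0.850 of the group's range. It was the only 1 of 54 WT measures examined in this way in which a library stood that far from the rest, and chance alone marks about 1 in 20. Chromosome Y, for which no value is compared above, held 0.152% of read ends in I53A 1, 0.180% in I53A 2, 0.136% in KO 1 and 0.131% in KO 2, and of these all but KO 2 were above the highest WT library at 0.132%.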

How the results depend on the processing

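The lower trans/cis ratio of I53A kept its sign and passed on all autosomes tested (18 without chromosome 11, otherwise 19) under every alternative except cis counts as deposited, where 0 passed. The genome-wide log2 difference ran from -0.37 to -0.30 with a library left out. For the relative ratio, 0 autosomes passed without chromosome 11, by limma or with the high rescued share libraries alone, and 0 to 1 with a library left out. Chromosome pairs passing, from 0, became 36 with I53A and KO alone, 14 with the rescued share as covariate, 3 with the high rescued share libraries (chosen after seeing the data), 31 with TMM in place of the offset, 26 with an offset from the product of totals, 13 by DESeq2, 8 with chromosome Y included and 6 with autosomes only. With a library left out they were 0 to 16, with 16 without WT 1 and 6 without WT 3 or WT 4. TMM keeps chromosome totals in and turned 5 with 19 to -0.012, 4 with 19 to -0.0096 and 11 with 18 to -0.55, and the product of totals turned 11 with 18 to -0.012. edgeR's own dispersion estimate, at the bottom of its range, gave 72 pairs and 3 autosomes, which rest on the failing formula. For the local slope 1 border passed with the rescued share as covariate (31.6 Mb) and 0 to 1 with a library left out.

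The labels do not say that a replicate number marks a shared day or batch, and with 2 numbers per line the pairing could not be settled. Deviations of same-numbered libraries from their line means correlated at 0.82 over autosomes, 0.42 over chromosome pairs and 0.50 over slopes. The replicate block gave 19 autosomes for the trans/cis ratio, 7 for the relative ratio, 70 chromosome pairs and 6 borders (316 and 562 kb, 3.16, 5.62, 10 and 31.6 Mb), and a genome-wide difference of -0.33. With 2 libraries per line the exact tests cannot pass. For chromosome pairs the median SD within lines was 0.0044 (log2) and the median counting error of a library 0.0033, so depth bears on small differences there.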
